A study of Mus musculus with 6 samples.

Results

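The E2A peaks described here are those annotated to 10 Sox transcription factor genes of neural cells. They are Sox1, Sox2, Sox3 and Sox21 (SoxB), Sox4 and Sox11 (SoxC), Sox5 and Sox6 (SoxD), and Sox8 and Sox9 (SoxE). A peak was taken at any distance if the authors' annotation named one of these genes as its nearest gene, and the 10 genes are among 12166 named in at least 1 list. They took 41 of 6814 peaks of wt replicate 1, 67 of 12772 of wt replicate 2, 105 of 24194 of wt replicate 3, 112 of 25229 of E12KO and 107 of 22176 of E47KO.

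The series used chromatin immunoprecipitation and sequencing (ChIP-seq) with an antibody against E2A in cultured neural stem cells of C57BL/6J mouse embryos at E12.5. The groups were wildtype (wt, 3 libraries), cells without the E12 form of E2A (E12KO, 1 library) and cells without the E47 form (E47KO, 1 library), besides 1 input library of wildtype cells. All cells grew with FGF-2 and EGF and were fixed first with EGS (ethylene glycol bis[succinimidyl succinate]) and then with formaldehyde. From the labels it is not known if the wt libraries are of separate embryos or cultures, how either allele was made, or whether the antibody binds both forms equally. Peak lists carry no expression values, so neither the cell type nor the genotype could be checked from them, and the read depth behind each list is unknown.

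E2A is the product of the basic helix-loop-helix gene Tcf3, whose splice forms E12 and E47 bind the E-box, a short DNA motif, together with tissue-restricted partners. Sox proteins bind DNA through a domain called the HMG box and are grouped by the likeness of that domain. In the developing nervous system Sox1, Sox2 and Sox3 keep progenitors undifferentiated, Sox21 opposes them, Sox4 and Sox11 activate genes of newly formed neurons, Sox5 and Sox6 act in neuronal subtype choice and in the oligodendrocyte lineage, and Sox8 and Sox9 act in the glial lineages.

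A start site of Sox1, Sox2, Sox11 and Sox8 was covered by a peak in 3 or more of the 5 lists. The same held for Sox4, Sox21, Sox6 and Sox9. For Sox2 and Sox8 the only wt list to cover the start was wt replicate 3. The share of all named genes with a start covered in 3 or more lists is not given here. The DNA just upstream of Sox1, Sox2, Sox11 and Sox8 is shown to let the E-boxes be seen. RefSeq promoters (GRCm38.p6) were matched for 8 of the 10 genes (not Sox3 or Sox9). Each line gives the 250 bases before the start, 5′ to 3′ on the gene's strand, and capitals mark every match to the E-box CANNTG. The windows are chr8:12395269-12395518 (plus strand) for Sox1, chr3:34649745-34649994 (plus) for Sox2, chr12:27342719-27342968 (minus) for Sox11 and chr17:25570687-25570936 (minus) for Sox8.
Sox1: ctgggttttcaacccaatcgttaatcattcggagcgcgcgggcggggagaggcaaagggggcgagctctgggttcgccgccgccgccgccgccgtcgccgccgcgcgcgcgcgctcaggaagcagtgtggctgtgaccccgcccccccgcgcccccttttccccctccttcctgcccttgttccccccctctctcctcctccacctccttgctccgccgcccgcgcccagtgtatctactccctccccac
Sox2: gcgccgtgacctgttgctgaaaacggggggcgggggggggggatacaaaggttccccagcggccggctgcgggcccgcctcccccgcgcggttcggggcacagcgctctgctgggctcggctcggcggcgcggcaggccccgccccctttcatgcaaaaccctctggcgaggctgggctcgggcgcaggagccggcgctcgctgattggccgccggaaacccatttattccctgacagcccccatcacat
Sox11: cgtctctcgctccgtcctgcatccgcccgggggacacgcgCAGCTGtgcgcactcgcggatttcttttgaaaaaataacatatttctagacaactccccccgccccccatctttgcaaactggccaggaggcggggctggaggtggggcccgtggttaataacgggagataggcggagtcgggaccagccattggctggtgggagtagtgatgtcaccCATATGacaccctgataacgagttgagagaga
Sox8: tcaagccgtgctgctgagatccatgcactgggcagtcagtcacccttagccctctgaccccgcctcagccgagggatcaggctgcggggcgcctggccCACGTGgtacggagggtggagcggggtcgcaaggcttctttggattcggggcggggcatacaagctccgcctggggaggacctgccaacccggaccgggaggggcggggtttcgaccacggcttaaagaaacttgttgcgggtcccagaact
The Sox1 and Sox2 windows hold no CANNTG, and neither does that of Sox21 or the 1 window matched for Sox5, which has 4 start sites in the peak lists. All 6 Sox6 windows hold at least 1 E-box, with 10 in all, among them CAGCTG and CACCTG once each. The Sox11 window holds CAGCTG at -210 and CATATG at -32, and the Sox8 window holds CACGTG at -152, with positions counted back from the start site. The table's Sox4 window holds CAGCTG at -211. Its Sox4 gene is 4781 bases long against 2953 in the peak lists, so that start may not be the one annotated there. Lengths also differ for Sox6 (569905 against 559704 bases) and Sox5 (953863 against 938239), and slightly for Sox2 and Sox21. The 6 Sox6 windows therefore need not match the Sox6 starts of the peak lists 1 to 1. Of 32851 promoter windows of this length, 66.2% hold at least 1 CANNTG (a palindromic pattern, so both strands are searched at once) and 4271 hold CAGCTG, which is 1 of its forms. These matches describe the letters in these windows and say nothing of where E2A binds within a peak, since the peaks are on mm9 and no sequence of that build was used.

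All 10 Sox genes had E2A regions that recurred between wildtype libraries. Wt peaks that overlapped by at least 1 bp were merged, and a merged region found in at least 2 of the 3 wt lists is called a consensus region. The 10 genes had 67 of the 12322 consensus regions, from 2 at Sox21 to 12 at Sox6. Every one of the 10 had at least 1, against 53.2% of all named genes, and the median named gene had 1. A consensus region lay within 10 kb of a start site for 9 of the 10, all but Sox3, against 31.7% of named genes. In 35 of the 67 regions (52.2%) all 3 wt lists had a peak, against 34.3% of all consensus regions.

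**Figure D1:**
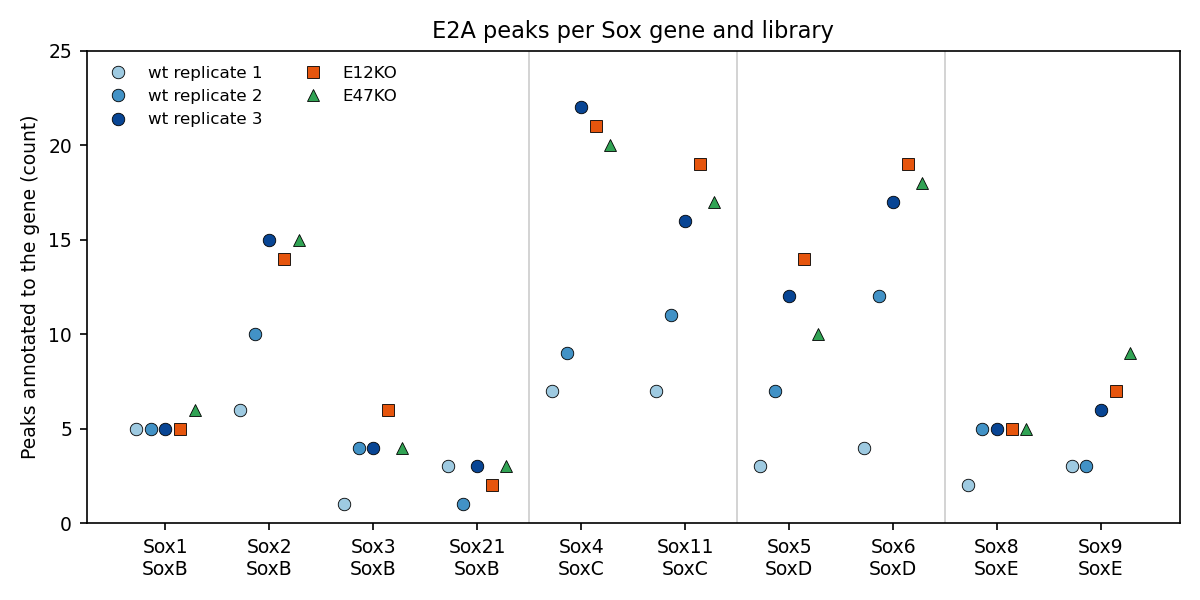
Peaks annotated to each Sox gene (count, y axis) in each of the 5 libraries, with wt replicates as circles, E12KO as squares and E47KO as triangles; grey lines separate the subfamilies. Sox1 stays at 5 or 6 peaks in every library, while Sox4 runs from 7 to 22.

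Among the SoxB genes, Sox1 had 5 peaks in each wt list, 5 in E12KO and 6 in E47KO. Sox2, a core regulator of neural progenitor identity, had 6, 10 and 15 wt peaks (by replicate number, as in the counts that follow), 14 in E12KO and 15 in E47KO. Sox1 thus kept its count while the whole list grew 3.55-fold from wt replicate 1 to wt replicate 3, and Sox2 rose 2.50-fold. Sox3, the X-linked member, had 1, 4 and 4 wt peaks, 6 in E12KO and 4 in E47KO. Sox21 had 3, 1 and 3 wt peaks, 2 in E12KO and 3 in E47KO, the lowest sum of the 10 genes over the 5 lists. Every SoxB knockout count except those of Sox1 in E47KO and Sox3 in E12KO fell between the lowest and highest wt count.

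With no limit on distance, the SoxC genes had 10.5 consensus regions per gene, against 5.0 for SoxB, 9.0 for SoxD and 4.0 for SoxE. The order rests on distal regions: within 100 kb of a start site SoxC had 3.0 per gene, against 6.0 for SoxD, 4.0 for SoxE and 2.75 for SoxB. Distances ran to the nearest of 4 start sites at Sox5 and 6 at Sox6, but from 1 at each SoxC gene. More sequence therefore lay within 100 kb at the SoxD genes. Sox4 had 7, 9 and 22 wt peaks, 21 in E12KO and 20 in E47KO. Sox11 had 7, 11 and 16 wt peaks, 19 in E12KO and 17 in E47KO. Summed over the 5 lists, Sox4 had more peaks than 99.84% of the named genes, and Sox11 more than 99.73%. Sox6 had the same sum as Sox11, 70 peaks, and Sox2 stood above 99.52% of the genes. The genes whose 5 counts were nearest to those of Sox4 (Euclidean distance of log2 of the count plus 1, over the 5 lists) were Chd7 at 0.33, Zmiz1 at 0.33 and Tns3 at 0.49. Nearest to Sox11 were Marcks at 0.28, Trio at 0.29 and Msi2 at 0.31.

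Of the SoxD genes, Sox5 had 3, 7 and 12 wt peaks, 14 in E12KO and 10 in E47KO. Sox6 had 4, 12 and 17 wt peaks, 19 in E12KO and 18 in E47KO. Both counts rose from wt replicate 1 to wt replicate 3 by more than the whole list did, 4.00-fold for Sox5 and 4.25-fold for Sox6. Sox3 also rose 4.00-fold, from 1 peak to 4, and all these ratios start from few peaks. Of the SoxE genes, Sox8 had 2, 5 and 5 wt peaks and 5 in each knockout. Sox9, which drives the switch of progenitors to making glia, had 3, 3 and 6 wt peaks, 7 in E12KO and 9 in E47KO. Over all 10 genes, Sox peaks made up 0.520% ± 0.0839 (SD, n = 3) of the wt lists, 0.444% of E12KO and 0.483% of E47KO, so both knockout shares lay inside the wt range of 0.434% to 0.602%.

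As a set, the Sox regions lay farther from start sites than consensus regions in general, but SoxE regions did not. The median distance from a Sox consensus region to the nearest start site of its gene was 79.3 kb, against 21.0 kb over all consensus regions. Beyond 100 kb lay 30 of the 67 (44.8%, against 17.9% of all regions), and within 10 kb lay 18 (26.9%, against 38.1%). Promoter regions numbered 9 (13.4% against 22.4%), introns held 20 (29.9% against 35.1%) and intergenic sequence held 32 (47.8% against 35.7%). By direction from the nearest start, 42 lay downstream, 16 upstream and 9 over it. The upstream regions of Sox5 and Sox6, 2 at each, lay in introns of the same gene, since these genes have several starts. The same split over all consensus regions is not given here.

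The subfamilies differed in where their regions lay. For SoxC, 15 of 21 regions were beyond 100 kb and 15 were intergenic, with a median distance of 223.2 kb. SoxB had a median of 74.7 kb with 9 of 20 regions beyond 100 kb. For SoxD, 11 of 18 regions were in introns, with a median of 60.0 kb, and the 8 SoxE regions had a median of 19.4 kb, with none beyond 100 kb. SoxD distances ran to the nearest of 4 start sites at Sox5 and 6 at Sox6, which can shorten them beside genes with 1. Regions of 1 gene are not replicates and each subfamily has few genes, so these differences were not tested.

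A high count does not mean many peaks close by, since a peak takes the name of the nearest gene however far away. Counting every consensus region within 100 kb of a start site, whichever gene it was annotated to, Sox11 had 2 and Sox4 had 4, where the median gene had 2. Sox6 had 7, counted around 6 start sites, and Sox5 had 5, counted around 4. Sox1 had 6, Sox21 and Sox9 had 4 each, Sox2 had 3 and Sox3 had 1. Sox8 had 14, more than 99.85% of the named genes, although only 4 of them were annotated to Sox8. Of the other 10, 3 were annotated to Sstr5, 5 to Lmf1, and 1 each to Tekt4 and Gng13. A region 4.48 kb upstream of the Sox8 start (chr17:25712110-25713338) was annotated to Lmf1 and had a 28.6-fold enrichment over background in wt replicate 1. The one annotated to Gng13 (chr17:25804218-25806568), 96.6 kb upstream of the Sox8 start, had the highest fold enrichment of all peaks of wt replicate 1, 106-fold.

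**Figure D2:**
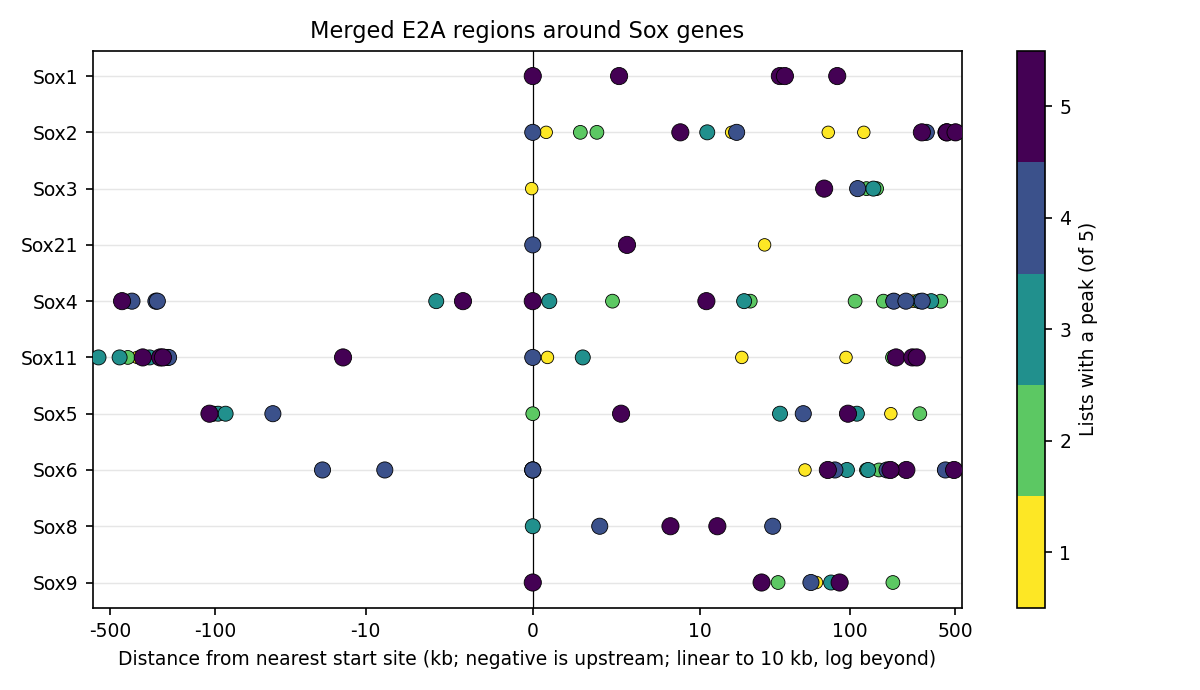
Each point is 1 of the 129 regions made by merging Sox peaks of the 5 lists, placed by its distance from the nearest start site of its gene (x axis in kb, negative upstream, linear to 10 kb and logarithmic beyond) and coloured by the number of lists with a peak. The 5 Sox1 regions were in all 5 lists, and Sox4 and Sox11 have regions on both sides beyond 100 kb.

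Of the SoxB loci, Sox1 was the most constant between libraries. Its 5 regions, at 0, 5.17, 34.1, 36.9 and 82.0 kb downstream, had a peak in every one of the 5 lists. Of these, 3 lay in Sox1ot, the noncoding transcript that overlaps the gene. Sox2 had 18 regions over the 5 lists, of which 5 were in all 5 lists and 5 in 1 list. Its consensus regions fell into a group at 0 to 17.8 kb and a group of 7 between 299.7 and 502.0 kb downstream, where all 7 also had a peak in E12KO and E47KO. Sox2ot, the noncoding gene that spans Sox2, had 6 further consensus regions annotated to itself, all 6 present in both knockouts.

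Sox3 had 3 consensus regions, all distal, with 2 of them beyond 100 kb. Its region in all 5 lists, chrX:58078366-58079305 at 67.3 kb, is intergenic, and its start site was covered in no list, the nearest peak being one of E12KO whose edge lay 64 bp upstream of it. Sox21 had a region 5.82 kb past its start (chr14:118629088-118630431) in all 5 lists and a second over its promoter in all lists but wt replicate 2.

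At the SoxC loci, Sox4 had 25 regions over the 5 lists and 4 of them in all 5. Those 4 lay over the start, 11.1 kb downstream, 4.18 kb upstream and 417.1 kb upstream, the last in intron 13 of 15 of Cdkal1, a neighbouring gene. A further 12 of the Sox4 regions lay in transcripts that the annotation leaves without a symbol. Sox11 had 22 regions, with 7 in all 5 lists, none of them at the promoter. The promoter region of Sox11 had a peak in every list but wt replicate 1.

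At the SoxD loci most regions were inside the genes themselves, which are long. Of the 36 regions of Sox5 and Sox6, 23 were in introns of the same gene, 9 in Sox5 and 14 in Sox6, and 2 more at Sox5 were annotated as 5′ UTR. Sox5 has 4 annotated start sites in these lists, of which wt peaks covered none, while E12KO covered 2 and E47KO covered 1. Sox6 has 6, of which wt replicates 1, 2 and 3 covered 0, 1 and 3, E12KO 2 and E47KO 3.

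At the SoxE loci, Sox8 had 2 regions in all 5 lists, 8.59 and 13.1 kb downstream, and its start was covered in wt replicate 3 and both knockouts only. Sox9 had 3 regions in all 5 lists, over the start and 25.8 and 85.1 kb downstream. Its start-site region (chr11:112642888-112643759) shows a limit of the nearest-gene rule, because the peaks there in wt replicates 1 and 2 were annotated to BC006965 and those of the other 3 lists to Sox9. That of wt replicate 1 had a 9.72-fold enrichment over background. The merged region covers the Sox9 start, but these peaks of wt replicates 1 and 2 ended short of it. The 2 peaks named BC006965 are therefore not among the 41 and 67 Sox peaks of those lists.

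The median Sox promoter peak was wider than the median promoter peak in all 5 lists, by little in wt replicate 1. In wt replicate 3 the median of 10 Sox promoter peaks was 1403 bp, against 710.5 bp over all promoter peaks, and in wt replicate 2 it was 676 bp for 8 peaks against 452 bp. In E12KO it was 1234 bp for 17 peaks against 817 bp, and in E47KO 1156 bp for 13 against 694 bp. In wt replicate 1 the 4 Sox promoter peaks had a median of 439.5 bp against 422 bp. At the Sox1 promoter the peak was 540, 1173 and 2688 bp wide in wt replicates 1, 2 and 3, 2906 bp in E12KO and 2321 bp in E47KO. At Sox6 the widest wt promoter peak spanned 3002 bp, in wt replicate 3, against 2727 bp in E12KO and 2491 bp in E47KO. The widths were not tested, and their part in how often a start site was covered was not tested.

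Fold enrichment over background, a score of the authors' peak caller, was used within wt replicate 1, where it ranks peaks. The 41 Sox peaks had a median of 7.58-fold, near the median of 7.48-fold over the whole list, but 9 of them (22.0%) were in the top 10% of the list, above 17.3-fold. All 9 lay at least 5.47 kb from a start site and as far as 277.1 kb. SoxB had 5 of the 9, SoxC 3 and SoxE 1, and none of the 7 SoxD peaks was among them.

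The strongest single peak was that of Sox3, 34.9-fold at 67.3 kb downstream, the 98.3rd percentile of the list. Sox11 followed with 33.5-fold at 232.7 kb upstream, and it had 5 of its 7 peaks above the list median. Sox1 reached 24.2-fold at 34.5 kb, in exon 5 of 8 of Sox1ot, and 22.0-fold at 5.47 kb. Sox21 reached 21.1-fold at 5.82 kb, Sox2 20.4-fold at 9.67 kb in an intron of Sox2ot, and Sox8 18.2-fold at 13.5 kb. The strongest peaks of the other genes were weaker, at 10.3-fold for Sox6 (intron 2 of 13), 10.1-fold for Sox4, 8.04-fold for Sox9 and 7.99-fold for Sox5 (5′ UTR). For Sox9 this leaves out the stronger peak in its start-site region, 9.72-fold, which was annotated to BC006965 and ended short of the Sox9 start. The 4 Sox promoter peaks of that list ran from 3.42-fold at Sox4 to 6.76-fold at Sox21, all below the list median, as were 926 of the 1573 promoter peaks of the whole list. The peak in the Sox9 start-site region, named BC006965 and so not among the 4, was above it.

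**Figure D3:**
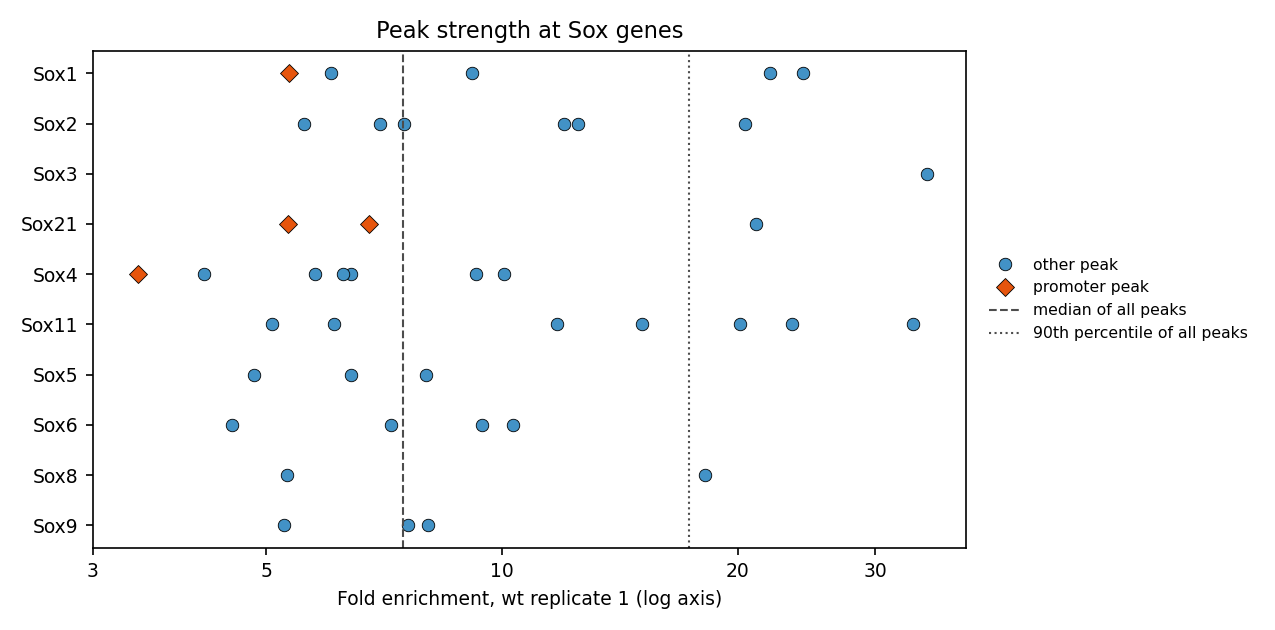
Fold enrichment (log axis) of each of the 41 Sox peaks of wt replicate 1, by gene, with promoter peaks as diamonds, other peaks as circles, and the median and 90th percentile of all peaks of that list as dashed and dotted lines. The 9 peaks right of the dotted line are all circles, and the 4 diamonds lie left of the dashed line.

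Nearly all Sox regions of wildtype cells also had a peak in each knockout. In E12KO 66 of the 67 were present, 98.5% (95% Wilson interval 92.0% to 99.7%), against 96.6% of all consensus regions. In E47KO 64 were present, 95.5% (87.6% to 98.5%), against 93.5%. The intervals cover counting error only, and each knockout has 1 library, so there is no replicate error for either share. By subfamily, E12KO held 19 of 20 SoxB, 21 of 21 SoxC, 18 of 18 SoxD and 8 of 8 SoxE regions, and E47KO held 19, 20, 17 and 8.

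The 35 Sox regions found in all 3 wt lists were all present in both knockouts. This was not particular to Sox genes. Of all merged regions with a peak in all 3 wt lists, 4153 were in both knockouts, 69 in 1 knockout and 7 in neither. Of the 67 Sox regions, 1, found in 2 wt lists, was missing in both knockouts, as were 1.87% of all consensus regions. It lies 149.8 kb downstream of the Sox3 start (chrX:57996223-57996807), in an intron of a transcript without a symbol, and had a peak in wt replicates 2 and 3. Missing in E47KO alone were a region 5.78 kb upstream of Sox4 (chr13:29051328-29051763), with peaks in wt replicates 1 and 3 and 5.77-fold in the former, and one in intron 1 of 14 of Sox5 (chr6:144118312-144118684), with peaks in wt replicates 2 and 3. None was missing in E12KO alone. Over all 12322 consensus regions, 571 were missing in E47KO alone and 184 in E12KO alone. The Sox regions missing in a knockout were named because they were missing, after their values were seen.

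Sox regions shared by a pair of wt lists were found in each knockout at least as often as in the held-out wt list, for each of the 3 pairs. The 63 Sox regions shared by wt replicates 2 and 3 had a peak in wt replicate 1 in 55.6% of cases, in E12KO in 98.4% and in E47KO in 96.8%. The 39 shared by wt replicates 1 and 3 were found in wt replicate 2 in 89.7%, in E12KO in 100% and in E47KO in 97.4%. The 34 shared by wt replicates 1 and 2 were found in all 3 of the other lists. Over all regions the held-out wt shares were 38.4%, 77.0% and 98.9% in the same order. The E12KO shares over all regions were 98.2%, 95.9% and 99.3%. Those of E47KO were 96.0%, 92.6% and 97.9%, the last below the wt share of 98.9%. List length moved with these shares: wt replicate 1, the shortest list, gave the lowest.

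**Figure D4:**
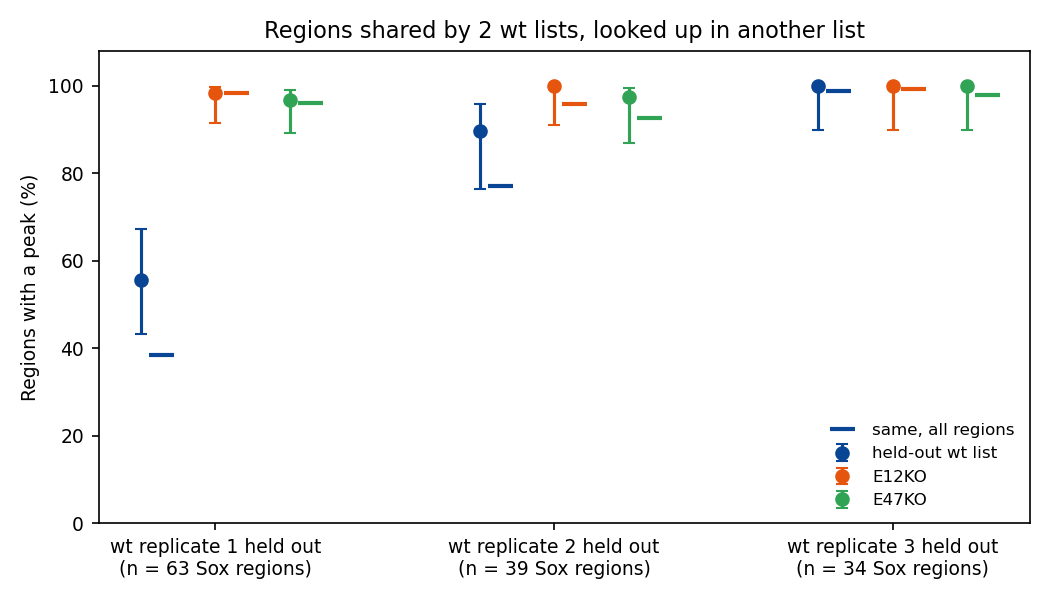
Share (%) of Sox regions shared by 2 wt lists that had a peak in the held-out wt list (blue), E12KO (orange) and E47KO (green), with 95% Wilson intervals; horizontal dashes give the same share over all regions. The share in wt replicate 1, at 55.6%, stands below the others, which run from 89.7% to 100%.

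Merging the peaks of all 5 lists gave 129 Sox regions. In all 5 lists were 35 of them (27.1%, against 12.7% of all 32693 merged regions). The share was 12 of 32 for SoxB, 11 of 47 for SoxC, 7 of 36 for SoxD and 5 of 14 for SoxE. In 1 list only were 20 (15.5%, against 28.4% of all merged regions), of which 9 were in E12KO, 6 in E47KO, 1 in wt replicate 1, 2 in wt replicate 2 and 2 in wt replicate 3. Of the 40 Sox regions with a peak in just 1 wt list, 5 had no knockout peak, 14 had one in 1 knockout and 21 in both. Over all merged regions these counts were 4402, 3644 and 6095. For 36 of the 40 the wt peak was in wt replicate 3, and 34 of these had a knockout peak. No share over all regions was computed for wt replicate 3 alone.

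Regions with a peak in a knockout and none in wildtype numbered 22 (17.1% of the 129, against 19.3% of all merged regions), and 7 of these were in both knockouts (5.43% of the 129, against 4.41% of all merged regions). Of the 7, the one nearest a start was at an internal Sox5 promoter (chr6:144157918-144158551). The others lay 21.6 kb downstream of Sox4, 33.1 kb downstream of Sox9, 128.3 kb downstream of Sox3, 155.4 and 232.4 kb downstream of the nearest Sox6 start, in Sox6 introns, and 191.2 kb downstream of Sox11. Without wt replicate 3, the longest wt list, the count of 22 became 56. Loss of a form and the length of the wt lists cannot be told apart as the source of this count.

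Other Sox genes had fewer regions as a group, although Sox13 had 2 consensus regions, as many as Sox21. Of 10 further family members, Sox7, Sox12, Sox13 and Sox14 had consensus regions, against 53.2% of the genes named in at least 1 list. They had 5 in all, and all 5 were present in both knockouts. Sox10, Sox15, Sox18, Sox30 and Sry had no peak in any list. Of 7 genes for partners and cofactors of Sox proteins, 5 had consensus regions, 28 in all, of which E12KO held 28 and E47KO 27. Over all consensus regions, E12KO held 96.6% and E47KO 93.5%, so neither group stood far from the rest. Among the partner and cofactor genes the chromatin remodeller Chd7 had 9, and the POU factors Pou3f1 and Pou3f2 had 7 and 6.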

How the data were processed

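E2A ChIP-seq peak lists of 3 wt, 1 E12KO and 1 E47KO library were used, grouped and numbered by the labels (input: not analysed here). The tools, per the submitters' processing notes, were MACS2 2.1.0, BWA 0.7.13 and Picard 1.119, on mm9. Their settings are not given in the sources used. Peaks were deposited per library, with the nearest gene and the distance to its start, per the file headers. Scores were deposited for wt replicate 1 alone, as the authors' peak caller gave them: −log10 p and −log10 q, a fold enrichment (ratio) and a pileup (signal). Folds were used only within that list. That list was also made differently: it carries a stricter false discovery rate label, holds no peak under 280 bp, takes distances from the opposite peak edge and counts introns of minus-strand genes in the opposite order, so distances were recomputed here from peak edges and start sites, and intron numbers come from the other lists. Positions are those of the merged region, and a fold's distance is that of the wt replicate 1 peak.

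Peaks were merged where they overlapped by at least 1 bp, with Python 3.11.15 and pandas 2.3.3, after a check on simulated peaks. Shares have 95% Wilson intervals. No test between genotypes was made, as each knockout has 1 library. Named were all 10 genes, the strongest region of each, regions missing in a knockout, regions that both knockouts but no wt list held, and regions within 10 kb of a start; other regions were named after their values were seen. The genes and lists were chosen with earlier results of these data known. Alternatives were the distance limit, the number of wt lists, the overlap, a stricter −log10 q in wt replicate 1, and leaving out each wt replicate.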

Additional observations from a re-analysis of the deposited data

How the results depend on the processing

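Of 87 alternative values, 35 moved: counts by more than 1.5 times, shares out of the reported value's 95% interval and the median fold percentile by more than 1 SD. The other 52 did not. Of the 67 Sox consensus regions, 18 were within 10 kb, 37 within 100 kb and 35 in all 3 wt lists, and leaving out 1 wt list gave 34 to 63. SoxB, with 20, had 6, 11 and 12 in the same order, and 12 to 19 without 1 wt list. SoxC, with 21, had 4, 6 and 11, and 11 to 19 without 1 wt list; it also had 6 when every peak within 100 kb was taken, whichever gene it was annotated to. SoxD, with 18, had 5 within 10 kb and 7 in all 3 wt lists, and 7 to 18 without 1 wt list. SoxE, with 8, had 3 within 10 kb, 5 in all 3 wt lists and 18 when every peak within 100 kb was taken, and 4 to 7 without 1 wt list. The E12KO share of 98.5% became 100% within 10 kb, within 100 kb, for every peak within 100 kb and in all 3 wt lists, and ran from 98.4% to 100% without 1 wt list. The E47KO share of 95.5% became 100% in all 3 wt lists and ran from 96.8% to 100% without 1 wt list. The 22 regions in a knockout and no wt list became 5 within 10 kb and 12 within 100 kb, and ran from 22 to 56 without 1 wt list. The limits on distance and on the number of wt lists leave fewer regions to count; other causes were not tested. No paired analysis was possible because each knockout has 1 library and no result comes from a test. Read depth is unknown, scores exist for 1 list, and list length differed up to 3.55-fold between wt replicates, which limits every count of regions absent from a list.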
